A study of Mus musculus with 11 samples.

Results

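The guanylate-binding proteins are large GTPases whose genes are switched on by interferons, above all by interferon gamma acting through the kinases JAK1 and JAK2. In mouse cells they gather on the vacuoles of intracellular parasites and on bacteria, break these compartments open and expose microbial products to inflammasomes. The ATG8 conjugation machinery guides them to such vacuoles, where they act beside a second family of interferon-inducible GTPases, the p47 or IRG proteins. In arteries, macrophages, endothelium and smooth muscle can all express them when exposed to interferon.

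All 10 genes whose symbol is Gbp2, Gbp2b or Gbp3 to Gbp10 were taken from a table of raw counts for 48897 genes, and all 10 passed the filter on low counts with 21343 genes tested in all. Polyadenylated RNA was sequenced from mouse arteries on day 7 after injury, as paired reads of 150 bases. The carotid artery had been ligated in Nrf3-/- knockout mice (2 libraries) and in flox mice as controls (3 libraries). The femoral artery had been injured with a wire in Nrf3-/- knockout mice (3 libraries) and in flox mice (3 libraries). What the groups share is that the vessel was injured, and the day. Each vessel had its own type of injury, so vessel and type of injury cannot be told apart. A difference between vessels below is a difference between both. The strain, sex, age, the Cre line behind the deletion, the allele the flox mice carry and any pooling of animals are not given in the sources used here, nor is it stated that the replicates of a group were separate animals. The p-values therefore measure the spread between these libraries, which may in part be technical. As the strain is not given, loss of Nrf3 and any other genetic difference between Nrf3-/- and flox mice cannot be told apart.

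Library totals ran from 43698644 to 55998563 counts. Nfe2l3, the gene of Nrf3, had 9 and 8 counts in carotid knockout libraries against 57, 75 and 85 in carotid controls, and 11, 2 and 0 counts in femoral knockout libraries against 48, 81 and 37 in femoral controls. Averaged over the vessels its log2 change was −3.24 ± 0.59 (SE, adjusted p = 0.0125 in the quasi-likelihood test of edgeR, with p-values adjusted by Benjamini-Hochberg over every gene tested), so every library fell on the side its label gives. Smooth muscle markers were present in the labelled arteries, with summed levels of 6 genes (Acta2, Myh11, Tagln and others) between 6833 and 14044 CPM (counts scaled to library size) over all 11 libraries. Markers of 6 skeletal muscle genes (Acta1, Ckm, Mylpf and others) also reached 145 to 1272 CPM in femoral knockout libraries and 470 to 4521 CPM in femoral controls, against at most 497 CPM in any carotid library.

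The 10 genes lie in 2 clusters on GRCm38. On chromosome 3, plus strand, follow Gbp5 (142496934 to 142522344), Gbp7 (142530336 to 142550151), Gbp3 (142560016 to 142573213), Gbp2b (142594816 to 142619176) and Gbp2 (142620663 to 142638008). On chromosome 5, minus strand, lie Gbp8 (105012513 to 105053609), Gbp9 (105076464 to 105110352), Gbp4 (105115767 to 105139586), Gbp10 (105215699 to 105239533) and Gbp6 (105270702 to 105295871). All 10 are annotated as protein-coding, and the positions span each gene with its introns.

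How far the counts of these paralogs can be told apart depends on their sequence. Between genes of the chromosome 5 cluster the coding sequences were 90.2 to 98.4% identical over 10 pairs, against 63.8 to 82.5% over 10 pairs within chromosome 3. Gbp10 and Gbp6 formed the closest pair at 98.4%, and Gbp2b and Gbp2 the closest on chromosome 3 at 82.5%. The first 150 coding bases of both pairs, 1 read length, are printed because they show what a read must resolve. Capitals mark bases that differ between the paired genes, 38 of 150 for Gbp2b and Gbp2 and 3 of 150 for Gbp10 and Gbp6 (GENCODE M21 transcripts).
Gbp2b coding bases: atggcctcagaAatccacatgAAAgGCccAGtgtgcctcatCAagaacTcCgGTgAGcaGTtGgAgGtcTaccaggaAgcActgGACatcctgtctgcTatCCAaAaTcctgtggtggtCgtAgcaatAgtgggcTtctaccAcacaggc
Gbp2 coding bases: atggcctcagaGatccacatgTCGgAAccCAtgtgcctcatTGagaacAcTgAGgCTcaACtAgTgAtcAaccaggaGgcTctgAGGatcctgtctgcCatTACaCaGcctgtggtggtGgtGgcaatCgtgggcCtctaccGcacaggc
Gbp10 coding bases: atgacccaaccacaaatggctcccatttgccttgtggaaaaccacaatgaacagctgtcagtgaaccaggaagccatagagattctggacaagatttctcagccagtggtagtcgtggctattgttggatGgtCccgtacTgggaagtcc
Gbp6 coding bases: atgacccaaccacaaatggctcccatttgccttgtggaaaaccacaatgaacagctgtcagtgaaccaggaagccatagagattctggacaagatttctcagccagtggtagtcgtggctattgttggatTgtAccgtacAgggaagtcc
No stretch of 150 bases in the Gbp2b or Gbp2 transcript occurred in another gene of the table, so a read that lies wholly inside either transcript has a distinct sequence. For Gbp6, 30.3% of such stretches occurred in Gbp10 too, and for Gbp10, 44.6% occurred in Gbp6. Counts of Gbp6 and Gbp10 are uncertain for that reason, and how the authors' counting treated reads with several matches is not given in the sources used here. Gbp4 shared 0.0456% of its stretches with Gbp11, and Gbp3, Gbp5, Gbp7, Gbp8 and Gbp9 shared none of this length.

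RefSeq promoters (GRCm38.p6) were matched for Gbp5, Gbp7, Gbp3, Gbp2b and Gbp2, and they are printed because 4 of these neighbours followed each other across libraries more closely than they followed Gbp2b. Each stretch runs upstream of an annotated start, and those of Gbp3 and Gbp2b stop where the table's gene begins. Capitals mark matches on either strand to GAAA followed after any 2 bases by GAAA, a core of the interferon-stimulated response element (ISRE), and to TTCNNNGAA, the interferon gamma activated site (GAS).
Gbp2b promoter, chr3:142594597-142594815, plus strand: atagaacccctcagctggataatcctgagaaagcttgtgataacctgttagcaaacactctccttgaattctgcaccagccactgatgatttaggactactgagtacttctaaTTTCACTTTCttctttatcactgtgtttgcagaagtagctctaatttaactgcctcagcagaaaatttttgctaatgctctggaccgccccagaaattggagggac
Gbp2 promoter, chr3:142620413-142620662, plus strand: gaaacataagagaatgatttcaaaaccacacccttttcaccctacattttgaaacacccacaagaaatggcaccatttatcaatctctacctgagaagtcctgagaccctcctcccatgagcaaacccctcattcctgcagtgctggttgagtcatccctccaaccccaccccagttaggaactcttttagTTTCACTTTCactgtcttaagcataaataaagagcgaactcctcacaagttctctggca
Gbp5 promoter, chr3:142496684-142496933, plus strand: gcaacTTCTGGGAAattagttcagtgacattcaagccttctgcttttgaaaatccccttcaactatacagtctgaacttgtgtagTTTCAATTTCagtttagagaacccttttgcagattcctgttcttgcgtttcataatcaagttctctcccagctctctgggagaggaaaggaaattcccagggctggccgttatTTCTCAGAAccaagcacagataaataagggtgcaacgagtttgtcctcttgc
Gbp7 promoter, chr3:142530086-142530335, plus strand: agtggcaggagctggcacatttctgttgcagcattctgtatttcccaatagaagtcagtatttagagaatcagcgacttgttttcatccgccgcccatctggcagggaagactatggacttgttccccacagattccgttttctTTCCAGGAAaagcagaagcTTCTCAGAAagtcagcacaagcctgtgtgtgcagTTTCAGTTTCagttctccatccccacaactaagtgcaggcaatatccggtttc
Gbp3 promoter, chr3:142559794-142560015, plus strand: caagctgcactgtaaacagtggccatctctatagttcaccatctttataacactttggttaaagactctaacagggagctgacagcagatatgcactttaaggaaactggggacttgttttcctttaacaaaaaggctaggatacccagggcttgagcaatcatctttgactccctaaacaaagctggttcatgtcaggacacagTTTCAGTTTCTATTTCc
All 5 genes held the ISRE letters within 250 bases of a start, as did 2.98% of 32851 promoters in windows of the same length. The matches of Gbp2b and Gbp2 had the same 10 letters, TTTCACTTTC, at 137 to 128 bases before the start in Gbp2b and at 59 to 50 in Gbp2. Gbp3 held overlapping ISRE matches at its first start and none at its second. The GAS letters occurred 2 times each in Gbp5 and Gbp7, apart from their ISRE match, and in no other of these windows. They were found in 7.02% of all promoters, and both motifs together in 0.332%. A match describes letters, not binding.

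The order of the family by level per gene length was largely shared by the 4 groups. Gbp2, which is lipid-anchored and coats parasite vacuoles in mouse cells, was highest in all 4 groups. It averaged 42.4 ± 13.9 CPM per kilobase in carotid knockouts (SD, n = 2) and 25.4 ± 8.2 in carotid controls (n = 3), and 92.3 ± 42.2 in femoral knockouts and 37.3 ± 14.1 in femoral controls (n = 3 each). Gbp3, Gbp5, Gbp7 and Gbp9 took places 2 to 5 in every group, and Gbp5 and Gbp3 overlapped in femoral knockout libraries. Gbp4 and Gbp6 followed, also overlapping in all 4 groups, and Gbp8 stood below them. Gbp10 was lowest in both knockout groups, with 0.599 ± 0.211 CPM per kilobase in carotid and 0.587 ± 0.0475 in femoral knockouts, whereas Gbp2b was lowest in both control groups, with 0.0659 ± 0.0372 in carotid and 0.233 ± 0.274 in femoral controls. In femoral controls the lowest neighbours, Gbp8, Gbp10 and Gbp2b, overlapped from one to the next.

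Gbp2b was the member whose place differed most, the 6th in carotid knockouts against the 10th in carotid controls, and the 8th in femoral knockouts against the 10th in femoral controls. In the carotid artery Gbp5 was 3rd in knockouts against 5th in controls, and Gbp6 8th in knockouts against 6th in controls, while every other difference in place was of 1 at most. Gbp2b, known as Gbp1 in older mouse literature, encodes a lipid-anchored protein that acts against Toxoplasma and Listeria. In carotid knockout libraries it had 743 and 1595 counts, against 11, 15 and 4 counts in carotid controls. In femoral knockout libraries it had 903, 111 and 1466 counts, against 82, 22 and 1 counts in femoral controls. Every knockout library stood above every control library of its vessel, although the lowest knockout library (femoral replicate 2, 2.5 CPM) was within 2-fold of the highest control (femoral replicate 1, 1.55 CPM). As a share of the family's summed level per length, Gbp2b made up 3.91 and 11.3% in carotid knockouts against 0.111, 0.135 and 0.0573% in carotid controls, and 3.19, 0.33 and 8.47% in femoral knockouts against 0.483, 0.202 and 0.0111% in femoral controls. The carotid shares did not overlap, while the share in femoral knockout replicate 2 lay below that in femoral control replicate 1.

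**Figure D1:**
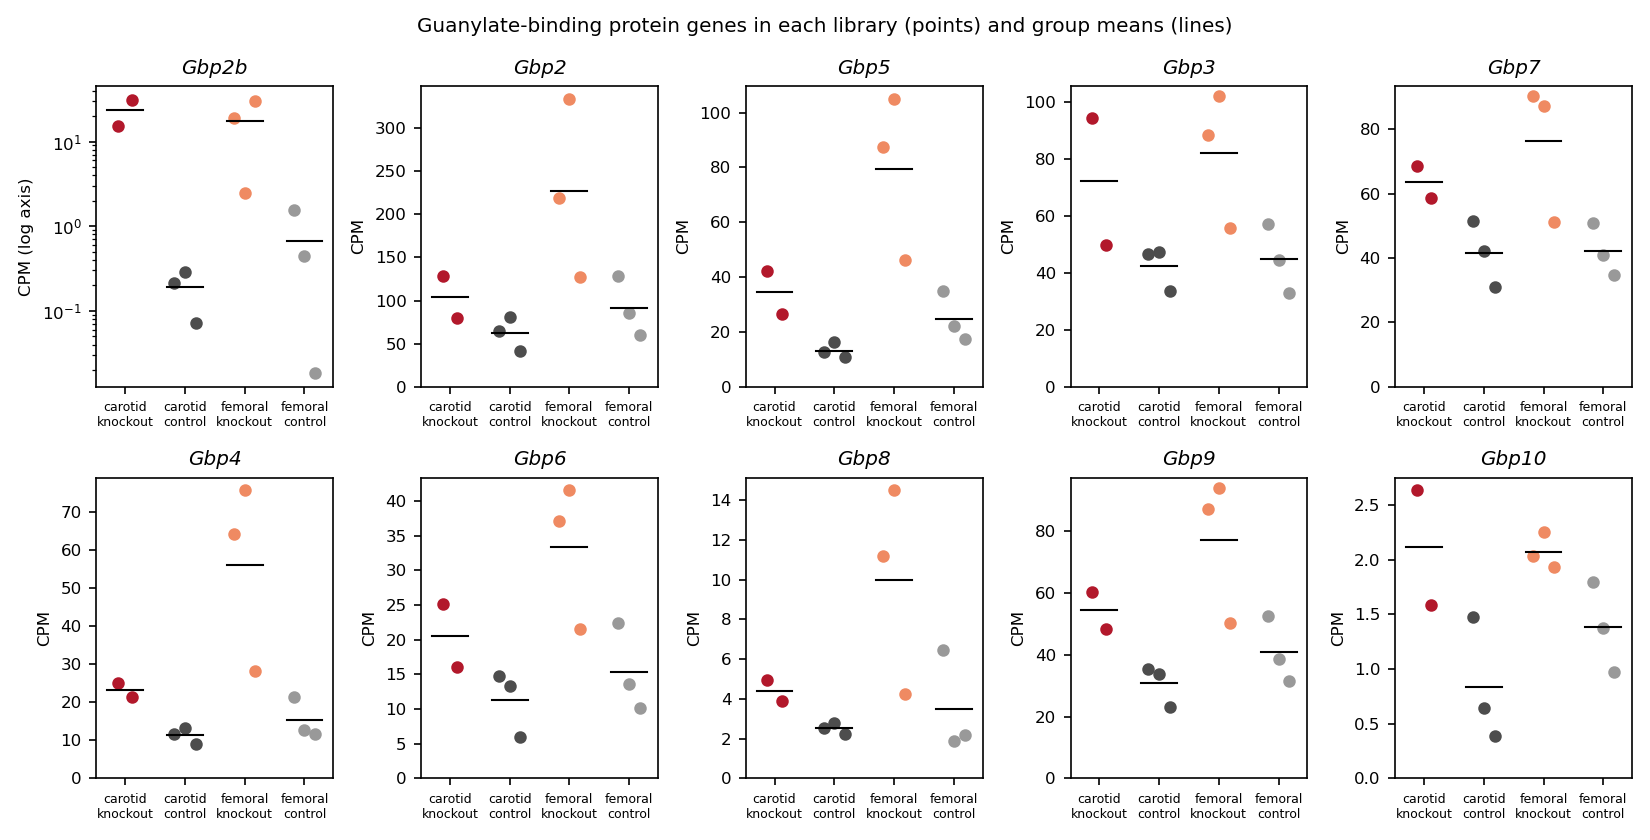
Level of each of the 10 genes in CPM (y axis; log axis for Gbp2b, linear from 0 for the others) in the 4 groups (x axis); points are libraries and lines are group means. Gbp2b shows the widest gap between knockout and control libraries, 15.3 and 31.2 CPM in carotid knockouts against at most 0.284 CPM in carotid controls, while the other genes differ by a smaller factor and partly overlap in the femoral artery.

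Knockout against control was tested first in the femoral artery, to see which members differ between Nrf3-/- and flox mice after wire injury. Gbp2b rose by 4.68 ± 1.05 on the log2 scale (SE, adjusted p = 0.0472, the quasi-likelihood test of edgeR, with p-values adjusted by Benjamini-Hochberg over every gene tested), Gbp4 by 1.88 ± 0.35 (adjusted p = 0.0292) and Gbp5 by 1.68 ± 0.33 (adjusted p = 0.036). These 3 of 10 members rose and none fell, against 1.84% of all genes called higher. All 10 estimates were positive, with a median of 1.21, while the median over all genes tested was −0.02. In bulk tissue, more cells of a type and more RNA per cell cannot be told apart.

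Gbp5, a lipid-anchored member that promotes assembly of the NLRP3 inflammasome, had 87.6, 105 and 46.1 CPM in femoral knockout libraries against 34.9, 22.3 and 17.4 CPM in femoral controls. Gbp4 had 64.1, 75.6 and 28.1 CPM in femoral knockouts against 21.4, 12.7 and 11.5 CPM in femoral controls. For both genes the lowest knockout library (replicate 3) still stood above the highest control (replicate 1). Gbp2 had 219, 334 and 127 CPM in femoral knockouts against 129, 85.8 and 60.3 CPM in femoral controls. Here replicate 3 of the knockout lay just under replicate 1 of the control, and the change of 1.31 ± 0.39 missed the threshold (adjusted p = 0.0958).

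The other members spanned log2 changes of 0.58 (Gbp10) to 1.50 (Gbp8), with adjusted p from 0.0835 (Gbp7) to 0.519 (Gbp10) in edgeR's quasi-likelihood test. Gbp7, which supports killing of parasites and mycobacteria in mouse macrophages, had 90.5, 87.3 and 51.3 CPM in femoral knockouts against 50.9, 41.1 and 34.7 CPM in femoral controls, groups that met but did not overlap. In all, 5 of 10 members (Gbp2b, Gbp4, Gbp5, Gbp7 and Gbp10) had every femoral knockout library above every femoral control, against 13.3% of all genes.

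The labels do not say what a replicate number marks. Deviations of same-numbered femoral libraries correlated weakly (r = 0.17, 0.18 and 0.12), and those of carotid libraries did not by the titles (−0.12 and −0.15). With the replicate number as a block 7 of 10 members rose in femoral knockouts (background 5.73% of all genes in either direction), and 0 were called in the carotid artery. As the femoral pairing was read from these same counts, the blocked fit is an alternative and not the main result. Gbp2 then reached 1.27 ± 0.26 (adjusted p = 0.0412), Gbp3 0.86 ± 0.19 (0.0472), Gbp6 1.13 ± 0.18 (0.0177), Gbp7 0.83 ± 0.11 (0.00942) and Gbp9 0.90 ± 0.13 (0.013) in the blocked edgeR fit. Gbp4 (1.81) and Gbp5 (1.65) stayed called, while Gbp2b did not (4.49 ± 1.03, adjusted p = 0.055). Without the block, the calls of Gbp4 and Gbp5 were lost when femoral control replicate 2 or 3 or femoral knockout replicate 1 or 2 was left out (log2 changes 1.60 to 2.21 and 1.43 to 2.00 over all libraries left out). Gbp2b passed only when femoral knockout replicate 2 was left out, and lost the call without any other library (4.02 to 6.24, adjusted p up to 0.168).

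In the ligated carotid artery 1 of 10 members rose, again with none fallen, against 0.661% of all genes called higher. That member was Gbp2b, at 6.93 ± 1.24 on the log2 scale (adjusted p = 0.0313 in edgeR's quasi-likelihood test). The other 9 estimates lay between 0.61 (Gbp7) and 1.38 (Gbp5), all positive, and the median of the 10 was 0.84 against 0.00 over all genes. Gbp5 had 42.3 and 26.5 CPM in carotid knockouts against 12.6, 16.2 and 10.9 CPM in carotid controls (adjusted p = 0.113). Gbp4 had 24.9 and 21.3 CPM in carotid knockouts against 11.5, 13.3 and 8.98 CPM in carotid controls (adjusted p = 0.233). Neither pair of groups overlapped.

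Carotid knockout libraries stood above all carotid controls in 9 of 10 members, against 16.4% of all genes, with Gbp2 as the exception (128 and 79.9 CPM in carotid knockouts against 64.9, 81.1 and 41.1 CPM in carotid controls). Only 2 libraries represent the carotid knockout, and the call of Gbp2b was lost without either of them, without any carotid control, and without femoral control replicate 2 or femoral knockout replicate 1, over a range of 6.32 to 7.34.

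Averaged over both vessels, 5 of 10 members rose and none fell, against 4.31% of all genes called higher. Gbp2b rose by 5.80 ± 0.81 (adjusted p = 0.00406), Gbp5 by 1.53 ± 0.25 (0.00742) and Gbp4 by 1.46 ± 0.25 (0.0103) in edgeR's quasi-likelihood test, and these 3 calls held under all 19 alternatives. Gbp9 rose by 0.87 ± 0.19 (adjusted p = 0.0287) and Gbp7 by 0.73 ± 0.18 (0.0386). Leaving out single libraries ended the call of Gbp9 in 6 of 11 cases and that of Gbp7 in 8. The remaining members lay between 0.82 (Gbp3, adjusted p = 0.0514) and 1.16 (Gbp8, adjusted p = 0.0914), with Gbp10 at 0.96 (adjusted p = 0.111). The 10 estimates had a median of 1.00 against −0.02 over all genes, and all 10 had an unadjusted p under 0.05, as did 22.8% of all genes.

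**Figure D2:**
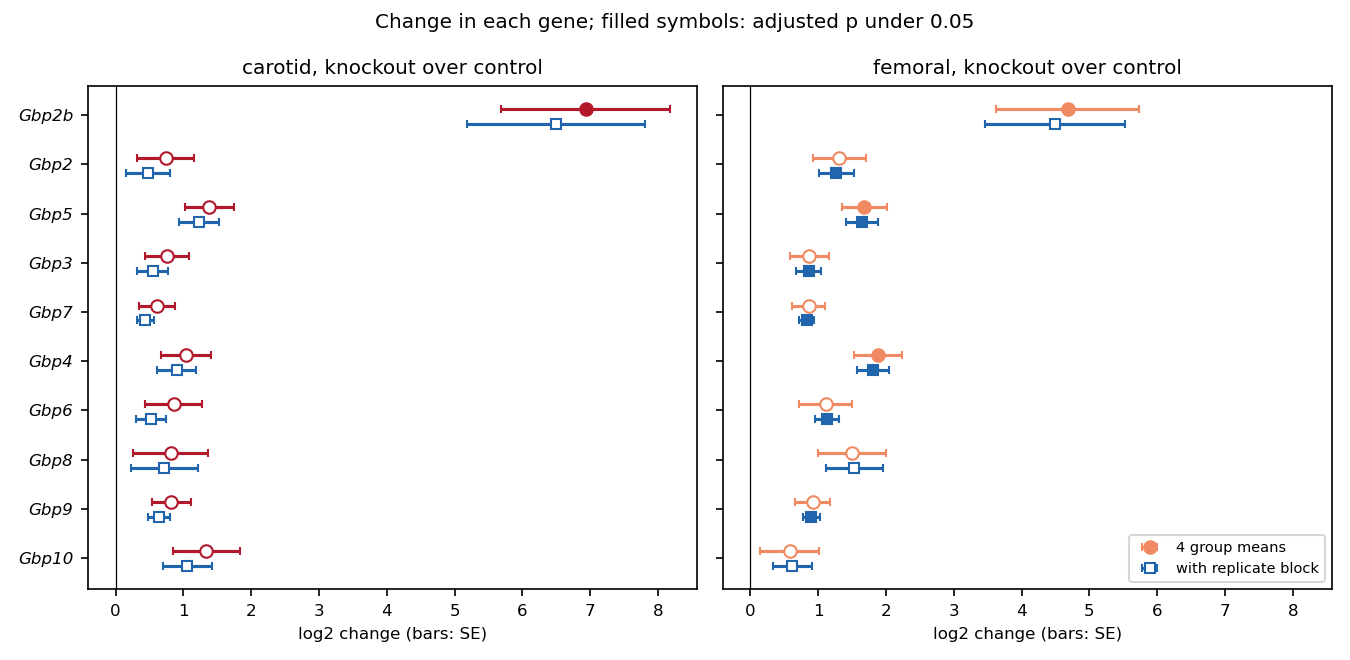
Log2 change of knockout over control (x axis, bars are SE) for each gene (rows) in the carotid (left) and femoral artery (right); circles come from the fit with 4 group means and squares from the fit with a replicate block, filled where the adjusted p is under 0.05. All estimates are positive, Gbp2b stands far right of the others in both vessels, and the block fills 7 femoral squares.

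Whether the knockout effect differs between vessels was tested as an interaction, the carotid effect minus the femoral one. None of the 10 members passed in edgeR's quasi-likelihood test (adjusted p from 0.67 to 0.965), where 0.00469% of all genes were called. None had an unadjusted p under 0.05, against 8.5% of all genes, so that few would be looked for among 10. DESeq2 called none of the members either. The largest estimates were 2.24 ± 1.55 for Gbp2b and −0.84 ± 0.51 for Gbp4. The SE of the difference ran from 0.36 (Gbp7) to 1.55 (Gbp2b), and p-values that miss the threshold do not show that the vessels respond alike.

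Between vessels of the same genotype no member was called either. In knockouts, 8 of 10 estimates for carotid over femoral were negative with a median of −0.60, and 4.91% of all genes were called. Gbp4 averaged 23.1 ± 2.58 CPM in carotid knockouts (n = 2) and 55.9 ± 24.8 CPM in femoral knockouts (n = 3), a log2 difference of −1.28 ± 0.39 (adjusted p = 0.0959, edgeR's quasi-likelihood test). Gbp5 differed by −1.21 ± 0.38 (adjusted p = 0.104). These 2 members were the ones with all carotid knockout libraries below all femoral ones, against 18.3% of all genes, and 3 members had an unadjusted p under 0.05, against 19.7% of all genes. In controls all 10 estimates were negative with a median of −0.46, and 6.21% of all genes were called. Gbp5 had the smallest p, at −0.91 ± 0.33 (adjusted p = 0.152), and was the 1 member below in every carotid control (13.6% of all genes) and the 1 member with an unadjusted p under 0.05, against 20.2% of all genes.

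Among knockouts, the library with the highest level of the family was not the one with the highest Gbp2b in either vessel. Femoral knockout replicate 2 had the highest level of the other 9 genes (262 CPM per kilobase in sum, each gene above its group mean) and the lowest Gbp2b, 2.16 below its group mean on the log2 scale. Femoral knockout replicate 3 had all 9 genes below the mean and Gbp2b 1.42 above it. The carotid knockouts split in the same way, with replicate 1 above the mean for all 9 genes and 0.51 below it for Gbp2b, and replicate 2 the reverse. In controls they moved together, since femoral control replicate 1 was highest and replicate 3 lowest for both. Over the 11 libraries the 36 pairs without Gbp2b correlated at r = 0.64 to 0.98 (median 0.93), and the 9 pairs with Gbp2b at 0.60 to 0.73 (median 0.69). These values include the difference between groups. For deviations from the group mean the medians were 0.86 without Gbp2b and 0.10 with it. All pairs share libraries.

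**Figure D3:**
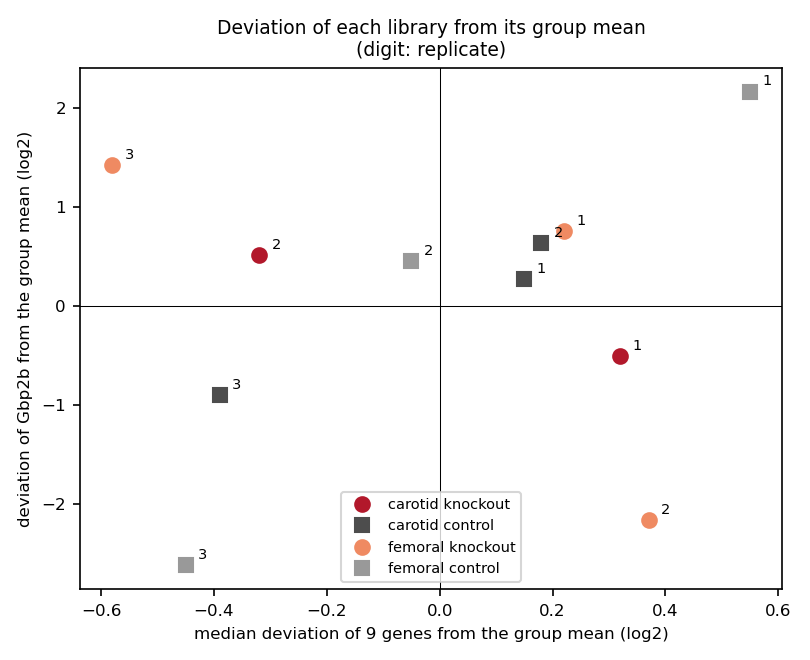
Deviation of Gbp2b from its group mean (y axis, log2) against the median deviation of the other 9 genes (x axis, log2), 1 point per library; circles are knockout and squares control libraries, digits are replicates. The knockout libraries with high Gbp2b and a low family level are femoral replicate 3 and carotid replicate 2, and femoral replicate 2 lies at the opposite corner.

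Genes whose pattern over the 11 libraries was among the 6 most like the family mean, out of 13352 ranked, included Tgtp1 (r = 0.985), Nod1 (0.983), Tap1 (0.980), Ifi47 (0.978) and Iigp1 (0.971). Tgtp1, Ifi47 and Iigp1 encode p47 GTPases, Tap1 a subunit of the peptide transporter for MHC class I, and Nod1 a sensor of bacterial peptidoglycan. The 6 genes most like Gbp2b were others, namely Zc3h6 (r = 0.941), Sema4b (0.935), Plekhg6 (0.933), Hal (0.932), Lmbr1 (0.931) and H2-T10 (0.930). Hal, which encodes histidine ammonia-lyase, had 2481 and 1303 counts in carotid knockouts against 7, 2 and 1 in carotid controls, and 698, 480 and 758 counts in femoral knockouts against 15, 1 and 1 in femoral controls. These genes were picked for following Gbp2b over the same libraries, so a gap between knockouts and controls comes with the choice and is given without a test. The fold of knockouts over controls in the average was 1.35 for Zc3h6, 1.31 for Sema4b, 1.29 for Plekhg6, 2.31 for Lmbr1 and 3.61 for H2-T10, a nonclassical MHC class I gene. None of the genes named in either set lies beside a Gbp cluster, although Lmbr1 is on chromosome 5.

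No gene tested beside the clusters passed in any knockout comparison. Kyat3, beside Gbp2 on chromosome 3, had estimates of 0.02 ± 0.22 in carotid and 0.06 ± 0.20 in femoral knockouts (adjusted p = 0.983 and 0.911, edgeR's quasi-likelihood test). Lrrc8b, the nearest protein-coding gene of the table beyond Gbp6 on chromosome 5, had 17.5, 14.9 and 18 CPM in femoral knockouts against 12.3, 7.83 and 9.17 CPM in femoral controls, so that all femoral knockout libraries stood above all controls. Its estimate was 0.78 ± 0.21 in femoral and 0.20 ± 0.23 in carotid knockouts (adjusted p = 0.0734 and 0.758). On the other side, Abcg3, the nearest protein-coding gene beyond Gbp8, had estimates of 0.36 ± 0.27 in femoral and −0.14 ± 0.30 in carotid knockouts (adjusted p = 0.519 and 0.883). Lrrc8b and Abcg3 were named after their values were seen. Gbp11, a further family gene beside Gbp6 that the choice of members did not include, had estimates of 0.90 ± 0.62 in carotid and 1.13 ± 0.56 in femoral knockouts (adjusted p = 0.551 and 0.302). Gm33189 and Gm5870, on the far sides of the clusters, had at most 4 counts in any library.

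For the gene lists and marker lists that follow, the background is all genes tested. Of these, 4.31% were called higher in the average, 1.84% in the femoral artery and 0.661% in the carotid. Their median log2 change was −0.02, −0.02 and 0.00 in the same order. The lists were chosen with earlier results of these data known. The inducer and its signalling chain were read from 13 genes. Averaged over the vessels 7 of the 13 rose and none fell, with a median of 0.76, and tested by vessel 4 rose in the femoral artery and none in the carotid. Il12rb1, a receptor chain for the interleukin that makes T and NK cells secrete interferon gamma, rose by 1.73 ± 0.28 (adjusted p = 0.00773 in edgeR's quasi-likelihood test, averaged). Tbx21, the master factor of interferon gamma producing T cells, rose by 2.16 ± 0.40 (0.0131), the transcription factor Irf8 by 0.80 ± 0.14 (0.0123) and Jak2 by 0.62 ± 0.12 (0.0156).

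Ifng itself, named after its values were seen, had 13 and 11 counts in carotid knockouts against 4, 0 and 4 in carotid controls, and 160, 165 and 44 counts in femoral knockouts against 5, 13 and 2 in femoral controls. It rose by 4.33 ± 0.81 in femoral knockouts (adjusted p = 0.0317, edgeR's quasi-likelihood test) and had an estimate of 2.21 ± 0.99 in carotid knockouts (adjusted p = 0.338), a difference between vessels of −2.12 ± 1.35 (adjusted p = 0.691). The order of its femoral knockout libraries, with replicate 3 lowest, was that of the summed level of the 9 Gbp genes other than Gbp2b (201, 262 and 114 CPM per kilobase in replicates 1, 2 and 3) and not that of Gbp2b. Carotid knockouts shared the order too (130 and 84.6 CPM per kilobase). Controls did not, with sums of 111, 76.5 and 57.3 in femoral and 66.8, 72.8 and 44 in carotid controls. Carotid control replicate 2, with 0 counts of Ifng, had the highest sum of its group. A link between Ifng and these levels was not tested.

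Other targets of interferon gamma moved in the same direction, 9 of 16 rising and none falling in the average (median 1.01), 4 of 16 in the femoral artery and 1 of 16 in the carotid. Ubd, a ubiquitin-like modifier, had 6.7 and 6.75 CPM in carotid knockouts against 0.311, 0.681 and 0.456 CPM in carotid controls, and 22.9, 29.4 and 10.8 CPM in femoral knockouts against 4.49, 2.7 and 0.698 CPM in femoral controls, and rose by 3.40 ± 0.43 in the average (adjusted p = 0.00246, edgeR's quasi-likelihood test). Serpina3g, a protease inhibitor, rose by 1.46 ± 0.23 (0.00622), Tap1 by 0.97 ± 0.17 (0.00998) and the immunoproteasome subunit Psmb9 by 0.82 ± 0.14 (0.0109).

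Of 13 genes in the list of p47 and related GTPases, 5 rose and 1 fell in the average (median 0.78), and none was called within a single vessel. Tgtp1 rose by 1.67 ± 0.36 (adjusted p = 0.0265), Gm12250 by 1.37 ± 0.29 (0.0237) and Iigp1 by 1.11 ± 0.26 (0.0338) in edgeR's quasi-likelihood test. The 1 that fell was Gvin1, which encodes a very large interferon-inducible GTPase and not a p47 protein. It had 1.42 and 1.59 CPM in carotid knockouts against 4.95, 2.76 and 3.54 CPM in carotid controls, and 2.07, 1.4 and 0.995 CPM in femoral knockouts against 4.79, 4.05 and 2.68 CPM in femoral controls, and its log2 change in the average was −1.34 ± 0.25 (adjusted p = 0.0146). Gvin1 thus went against the direction of all 10 Gbp genes in both vessels.

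Among 20 genes of the type I interferon response 6 rose and none fell in the average (median 0.72), none was called in the femoral artery and 1, Ifit2, in the carotid (1.10 ± 0.21, adjusted p = 0.037, edgeR's quasi-likelihood test). Mx1 rose by 1.35 ± 0.30 in the average (0.0281), Stat2 by 0.61 ± 0.15 (0.0412) and the RNA sensor Ifih1 by 0.59 ± 0.15 (0.0429). Downstream of the Gbp proteins, 3 of 16 inflammasome and pyroptosis genes rose and none fell in the average (median 0.65). These were the DNA sensor Aim2 (1.01 ± 0.20, adjusted p = 0.0202), the sensor Naip2 (0.97 ± 0.20, 0.0215) and pore-forming Gsdmd (0.58 ± 0.13, 0.0297). Aim2 and Naip2 were also called in the femoral artery and no gene of the list in the carotid. None of 10 ATG8 conjugation genes was called in either vessel or in the average by edgeR's quasi-likelihood test, with medians between −0.05 and 0.05. The smallest p of that list belonged to Map1lc3a (−0.24 ± 0.10 in the average, adjusted p = 0.186) and Atg7 (0.12 ± 0.05, adjusted p = 0.21).

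Summed markers of T and NK cells and of B and plasma cells were higher in knockouts of both vessels, the direction of the Gbp estimates. Within groups, the T and NK sums followed the order of the summed Gbp genes other than Gbp2b in femoral controls alone. In carotid knockout replicates 1 and 2 the T and NK sums were 54.3 and 61.1 CPM, beside 130 and 84.6 CPM per kilobase for those Gbp genes. The summed level of 10 T and NK cell markers was 54.3 to 61.1 CPM in carotid knockouts against 8.4 to 14 CPM in carotid controls, and 52.9 to 68 CPM in femoral knockouts against 13.6 to 28.2 CPM in femoral controls. In the average 8 of the 10 rose, with Cd3e at 2.28 ± 0.20 (adjusted p = 0.000243), Cd3d at 2.01 ± 0.28 (0.00375) and Cd3g at 1.88 ± 0.33 (0.0114) in edgeR's quasi-likelihood test. The sum of 5 B and plasma cell markers was 36.4 to 45.1 CPM in carotid knockouts against 2.9 to 3.88 CPM in carotid controls, and 24.7 to 60.8 CPM in femoral knockouts against 2.9 to 9.52 CPM in femoral controls, and all 5 rose in the average.

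The 6 macrophage markers summed to 996 to 1369 CPM in carotid knockouts against 966 to 1300 CPM in carotid controls, ranges that overlap, and to 991 to 1332 CPM in femoral knockouts against 769 to 852 CPM in femoral controls, where they do not. Of the 6, Csf1r and Itgam (the second named after its values were seen) rose in the femoral artery and none in the carotid. In the average 1, Cd68, rose (0.52 ± 0.13, adjusted p = 0.0464, edgeR's quasi-likelihood test). The 6 neutrophil markers summed to 240 to 372 CPM in carotid knockouts against 88.9 to 272 CPM in carotid controls, and to 164 to 488 CPM in femoral knockouts against 65.1 to 163 CPM in femoral controls, with Ly6g at 0 in 2 femoral control libraries. The neutrophil sums overlapped in the carotid artery and just cleared each other in the femoral, and 0 of the 6 genes passed in either vessel or in the average, although all 6 estimates were positive in each. Endothelial markers (Cdh5, Pecam1, Tek and others) summed to 1322 to 1600 CPM in carotid knockouts against 888 to 1386 CPM in carotid controls, and to 1135 to 1542 CPM in femoral knockouts against 1379 to 1674 CPM in femoral controls. Fibroblast markers (Pdgfra, Dcn, Lum and others) summed to 3892 to 5214 CPM in carotid knockouts against 3463 to 4222 CPM in carotid controls, and to 4350 to 4873 CPM in femoral knockouts against 5049 to 5489 CPM in femoral controls. Of these last pairs of groups, the femoral fibroblast sums alone did not overlap, and they were lower in knockouts. Of the 5 fibroblast markers, 1 fell there (Cd34, named after its values were seen) and 0 rose. A positive estimate was found for 2 of the 5, among them Pdgfra with 407, 372 and 359 CPM in femoral knockouts against 241, 215 and 257 CPM in femoral controls (0.67 ± 0.17, adjusted p = 0.0627, edgeR's quasi-likelihood test). The part of these cells in the Gbp levels was not tested. With the level of skeletal muscle markers as a covariate no member passed in the femoral artery, Gbp2b did in the carotid, and Gbp2b, Gbp4 and Gbp5 did in the average. All 10 estimates stayed positive in each, with medians of 1.02, 0.72 and 0.84 in the same order. The smaller shares of all genes called with this covariate, in the femoral artery and the average, are given with the processing below.

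**Figure D4:**
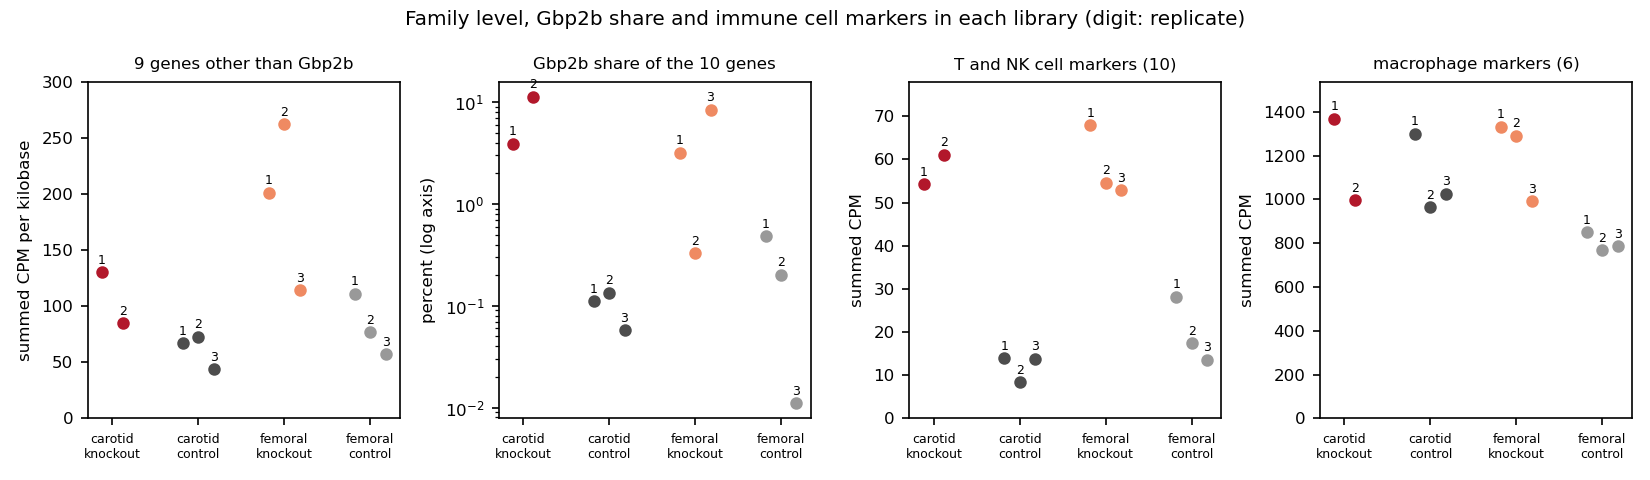
From left to right, the summed level of the 9 genes other than Gbp2b (CPM per kilobase), the share of Gbp2b in the summed level of all 10 (percent, log axis), and the summed levels of 10 T and NK cell markers and of 6 macrophage markers (CPM), for each library of the 4 groups; digits are replicates. T and NK markers separate all knockout from all control libraries (52.9 CPM or more against 28.2 CPM or less). The summed level of the 9 genes does not, with 84.6 in carotid knockout replicate 2 below 111 in femoral control replicate 1. Within the femoral artery, knockout replicate 3 at 114 is close to that control.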

How the data were processed

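The authors deposited raw gene counts (whole numbers per gene and library, not normalized) for 11 mouse artery libraries. HISAT2, HTSeq, DESeq, DESeq2 and edgeR are named without versions or roles, per the submitters' processing notes. Those notes name mm9, but 99.8% of 39064 genes joined by NCBI gene ID overlap their GRCm38 position, so positions are given as GRCm38. The strand setting of the counting is not given in the sources used here, so a gene and an antisense partner such as that of Gbp3 cannot be told apart. A spreadsheet had turned 27 symbols into dates, which were restored from the NCBI gene ID.

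Levels are CPM, the counts scaled to library size, computed here with TMM factors of 0.963 to 1.03, per kilobase of the table's gene length where genes are compared. Tests used edgeR 4.0.16 (R 4.3.3) on all 11 libraries with 4 group means, 21343 genes after filterByExpr, two-sided quasi-likelihood tests and Benjamini-Hochberg adjustment over all genes, called under 0.05. The SE was taken from each test, as the size of the log2 change over the root of its F statistic. Alternatives included DESeq2 1.42.0, and tables, sequences and figures used Python with Biopython and matplotlib. Intervals and floors from counts would cover counting error only.

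Deviations of same-numbered femoral knockout and control libraries correlated at r = 0.17, 0.18 and 0.12, against −0.18 to 0.011 for other numbers, which is where the femoral pairing comes from. Deviations within a group balance each other, so higher values for the same number bring lower ones for other numbers. In the carotid artery r was −0.12 and −0.15 by the titles. The description of carotid knockout replicate 2 numbers it 3. The members and all gene lists were chosen with earlier results of these data known. Named genes are the members, up to 4 called genes of each list by smallest p in the average (2 where none is called), the first 3 markers of each cell type, the 6 most alike genes and the neighbours of each cluster. A gene that this rule names is not reported here. The authors' read assignment to paralogs was not examined further.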

Additional observations from a re-analysis of the deposited data

How the results depend on the processing

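Of the 10 members, 3 were called in the femoral artery, 1 in the carotid and 5 in the average, against 2.51, 0.923 and 6.31% of all genes in either direction. Without a filter on low counts these counts were 6, 2 and 9 (3.16, 1.25 and 4.8% of all genes), and with DESeq2 they were 9, 2 and 10 (8.6, 4.64 and 12.2%). With only the libraries of both groups in the fit, none passed in the femoral artery (2.23%). With the skeletal muscle covariate none passed in the femoral artery (0.586%) and 3 did in the average (2.69%). The replicate block from title numbers within each vessel gave 7 in the femoral artery, 0 in the carotid and 7 in the average (5.73, 0.365 and 6.12%). With description numbers the block gave 7, 1 and 8 (5.91, 0.923 and 7.49%), and with title numbers shared by both vessels it gave 8, 0 and 8 (6.85, 0.881 and 7.99%). With only 2 carotid knockouts, whose deviations mirror each other, the correlations cannot show whether the carotid numbers pair the samples. Calls lost in the carotid artery under a block are given as counts, and Gbp2b lost its carotid call under each of these blocks. Blocks within a vessel give no comparison between vessels. With counts summed by chromosome, 0, 0 and 10 members belonged to a called sum, and with Gbp2b apart and Gbp11 added (chosen after seeing the data) 1, 1 and 10. Leaving out single libraries gave 0 to 6 in the femoral artery, 0 to 1 in the carotid, 3 to 9 in the average and 0 to 2 for carotid over femoral knockouts. That last comparison had 2 with no filter, 2 with DESeq2 and 5 with the block shared by both vessels (3.91, 9.99 and 7.17%), against 0, and the control comparison had 1 with DESeq2 (10.9%), against 0. The median-of-ratios scaling and the filter of 10 counts in 3 libraries left every count of members within 1.5 times.

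All 10 members kept a positive knockout estimate in both vessels under every alternative fitted per gene. Signs turned only for estimates between vessels that were not called. Without single libraries, the interaction ran from −0.65 to 0.27 for Gbp3, −0.62 to 0.026 for Gbp6 and −0.35 to 0.067 for Gbp9, which was 0.020 under the block with description numbers. In carotid over femoral controls, leaving out single libraries gave −0.26 to 0.13 for Gbp3, −0.20 to 0.15 for Gbp7 and −0.78 to 0.30 for Gbp8. In carotid over femoral knockouts it gave −0.19 to 1.09 for Gbp2b, −0.73 to 0.19 for Gbp3 and −0.39 to 0.34 for Gbp10, which was −0.29 with the shared block and −0.38 with the skeletal muscle covariate. The cause of these shifts was not tested. In control libraries Gbp2b had 1 to 82 counts and Gbp10 21 to 95, the depth behind their control levels.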
